A study of Homo sapiens with 15 samples.

Results

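Chemokines are small secreted proteins that recruit leukocytes, and 10 of them were followed here in airway epithelial cells exposed to urban particulate matter (PM2.5). They were the CXC ligands *CXCL1*, *CXCL2*, *CXCL3*, *CXCL5*, *CXCL6*, *CXCL8*, *CXCL14* and *CXCL16* and the CC ligands *CCL2* and *CCL20*. They were taken by gene symbol from a table of read counts for 58219 genes, and all 10 were among the 17599 genes with enough counts to be tested. The cells were BEAS-2B, an established line of human bronchial epithelial cells immortalized with viral genes, so the libraries hold a single cell type in culture and no leukocytes to respond. Every group had 3 libraries, each from a separate experiment. In the single exposure, cells received vehicle (control), 1 µg/cm2 or 30 µg/cm2 of PM2.5 collected in Beijing and were harvested after 24 h. In the repeated exposure, cells received vehicle or 1 µg/cm2 each day and were washed between exposures. The labels give 7 days of exposure, and the methods of the study describe a shorter series of exposures with harvest on day 7.

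CXC ligands that carry a glutamate-leucine-arginine (ELR) motif before their first cysteines act on the receptors CXCR1 and CXCR2 and draw neutrophils into the airway. *CXCL8* encodes interleukin-8, and *CXCL1*, *CXCL2*, *CXCL3*, *CXCL5* and *CXCL6* encode the other ELR ligands of this set. *CXCL14* lacks the motif and is a constitutive product of many epithelia. *CXCL16* is made as a membrane-bound protein, is released by proteases of the ADAM family and binds CXCR6. *CCL2* attracts monocytes through CCR2, and *CCL20* attracts dendritic cells and lymphocytes that carry CCR6. In epithelial cells many of these genes are induced by interleukin-1 and tumor necrosis factor through the transcription factor NF-kB.

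The 6 ELR genes lie together on chromosome 4 (GRCh38). *CXCL8* (ENSG00000169429) runs from 73740506 to 73743716, *CXCL6* from 73836497 to 73849064 and *CXCL1* (ENSG00000163739) from 73869393 to 73871242, all on the plus strand. *CXCL5* runs from 73995642 to 73998779, *CXCL3* from 74036589 to 74038807 and *CXCL2* from 74097035 to 74099293, all on the minus strand. *CXCL14* lies on chromosome 5 (135570679 to 135579279, minus strand), *CXCL16* and *CCL2* on chromosome 17 (4733526 to 4739922, minus strand, and 34255218 to 34257203, plus strand) and *CCL20* on chromosome 2 (227813842 to 227817564, plus strand). All are multi-exon protein-coding genes, and the counts cover their exons.

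The RefSeq table of promoters (GRCh38.p14) held 8 of the 10 genes. The stretch just before the RefSeq start of transcription is shown for the 6 whose levels the results turn on. The first 3 are close copies of one another, and are set beside each other because *CXCL2* and *CXCL3* passed the test at the high dose and *CXCL1* did not. Matches to an NF-kB motif (GGNNTTTCC) and to an AP-1 motif (TGANTCA), on either strand, are in capitals. For *CXCL2*, *CXCL3*, *CXCL8* and *CXCL14* the RefSeq start lies inside the gene span given above, so the stretch shown overlaps that span. The sequences come from chr4:73869273-73869392 on the plus strand, chr4:74099196-74099315 on the minus strand, chr4:74038690-74038809 on the minus strand, chr4:73740419-73740568 on the plus strand, chr2:227813722-227813841 on the plus strand and chr5:135578992-135579111 on the minus strand, in this order, and end at the base before the start.
*CXCL1*: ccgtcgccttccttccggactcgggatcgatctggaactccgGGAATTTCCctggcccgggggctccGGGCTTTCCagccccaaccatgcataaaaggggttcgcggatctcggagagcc
*CXCL2*: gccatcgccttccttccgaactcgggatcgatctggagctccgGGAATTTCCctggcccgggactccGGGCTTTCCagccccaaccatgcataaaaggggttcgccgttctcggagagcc
*CXCL3*: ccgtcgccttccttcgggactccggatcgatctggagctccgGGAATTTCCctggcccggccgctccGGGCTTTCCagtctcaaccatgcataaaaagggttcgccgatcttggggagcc
*CXCL8*: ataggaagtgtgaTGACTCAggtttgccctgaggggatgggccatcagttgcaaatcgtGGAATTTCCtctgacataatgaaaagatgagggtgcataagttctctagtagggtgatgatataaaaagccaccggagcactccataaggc
*CCL20*: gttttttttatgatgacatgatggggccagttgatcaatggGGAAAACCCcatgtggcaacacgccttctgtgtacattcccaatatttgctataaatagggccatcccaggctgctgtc
*CXCL14*: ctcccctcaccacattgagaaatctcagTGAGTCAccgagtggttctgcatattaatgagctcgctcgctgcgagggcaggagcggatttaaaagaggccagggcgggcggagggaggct

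In the 250 bases before the start, 7 of the 8 genes held the NF-kB motif, against 5.48% of all 35116 promoters in the table. The 7 are not separate cases, since *CXCL1*, *CXCL2* and *CXCL3* are close copies. *CXCL5* and *CXCL6* also share the stretch around their match, which began at base -90 and -89. *CXCL14* was the one without a match, which says only that these letters are not in this window. *CXCL1*, *CXCL2* and *CXCL3* each held 2 matches. Over the last 100 bases, compared position by position without gaps, *CXCL1* was identical to *CXCL3* at 90 positions and to *CXCL2* at 73. The first match began at base -78 in *CXCL1* and *CXCL3* and at -77 in *CXCL2*, and the second at -53 in all 3. Bases of *CXCL2* further upstream were therefore compared out of step, and the counts do not rank the likeness of the 3 genes. The AP-1 motif was present in *CXCL8* and *CXCL14*, against 6.57% of all promoters. A motif of the antioxidant response element (TGACNNNGC) was found in 0 of the 8 and in 10.9% of all promoters. The core of the aryl hydrocarbon receptor motif (GCGTG) was found in *CXCL5*, *CXCL14* and *CCL20*, and in 32.2% of all promoters. The motif map shows where each match lies. A match is a description of the sequence and not evidence of binding.

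**Figure D1:**
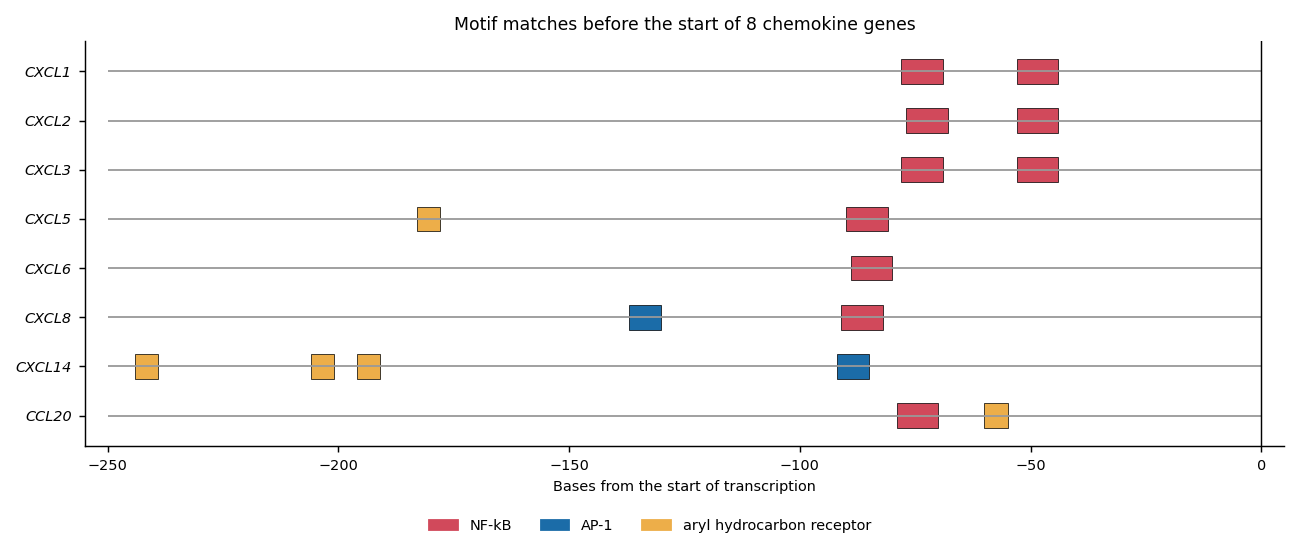
Matches to 3 motifs, on either strand, in the 250 bases before the start of transcription of 8 chemokine genes (x axis: bases from the start; colored boxes: matches, to scale). The 7 genes other than *CXCL14* hold an NF-kB match between 91 and 45 bases before the start.

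Depth was similar across the libraries, at 21460981 to 34724765 counts, of which 2.37% to 4.40% were mitochondrial. A count of 3, taken as the floor of detection, corresponded to 0.0866 to 0.149 CPM (counts per 1000000 counts of the library). The 24-h libraries of experiment 2 stood apart from the others. Pairs of libraries from a 24-h group were compared by a chi-square test of their counts over genes. The statistic divided by its degrees of freedom was 76.6 to 181 for pairs with experiment 2 and 4.44 to 18.1 for experiments 1 and 3, where 1 would mean sampling noise only. In the repeated protocol it was 4.32 to 5.10 among the controls, and 19.7 to 25.5 where exposed library 3 was compared with the other exposed libraries. Several chemokines took part in this, so results of the chemokines at 24 h that change without experiment 2 are given with and without it. Airway epithelial markers were present in every library, with *KRT5* at 110 to 1072 CPM and *KRT18* at 129 to 481 CPM. Of 10 leukocyte markers, *LYZ* and *FCGR3B* had 0 counts in all 15 libraries and *PTPRC* had at most 2, whereas *CD14* was at 2.30 to 23.4 CPM. Of 3 endothelial markers, each had at most 8 counts in a library. Of 6 fibroblast markers, all were measured and none changed in any comparison, with *COL1A1* at 22.3 to 52.0 CPM. In these bulk libraries, fewer transcripts per cell and fewer cells that express a gene cannot be told apart.

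Compared between genes on a scale corrected for length (RPKM, CPM per kilobase of exon), *CXCL16* and *CXCL1* were the most abundant chemokines of 24-h control cells. *CXCL16* was at 7.63 ± 0.620 RPKM (SD, n = 3) and *CXCL1* at 5.004 ± 3.03 RPKM, and their ranges overlapped. *CXCL8* followed at 2.41 ± 1.40 RPKM and *CXCL2* at 1.79 ± 0.221 RPKM, again with overlapping ranges. The other 6 had mean levels of 0.161 RPKM (*CXCL5*) to 0.908 RPKM (*CXCL14*). The mean of *CXCL14* rested on control 2, and it was 0.158 RPKM over controls 1 and 3, the lowest of the 10 there. At 30 µg/cm2 the order began with *CXCL16* at 12.4 ± 1.82 RPKM and *CXCL8* at 10.7 ± 0.857 RPKM, whose ranges overlapped, followed by *CXCL1* at 7.81 ± 4.64 RPKM, *CXCL2* at 4.95 ± 1.15 RPKM and *CCL20* at 2.98 ± 0.401 RPKM. The summed level of the 10 transcripts was 16.3 to 23.6 RPKM in 24-h controls, 13.7 to 21.4 RPKM at 1 µg/cm2 and 38.0 to 50.0 RPKM at 30 µg/cm2. It was 17.8 to 20.1 RPKM in controls of the repeated protocol and 20.8 to 22.9 RPKM after daily exposure. *CXCL8* made up 4.96% to 14.6% of this sum in 24-h controls and 19.4% to 29.0% at 30 µg/cm2. The share of *CXCL16* was 31.1% to 51.3% in those controls and 28.0% to 31.1% at 30 µg/cm2, as its level rose less than the sum. These levels are descriptions, with no test of the sum.

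**Figure D2:**
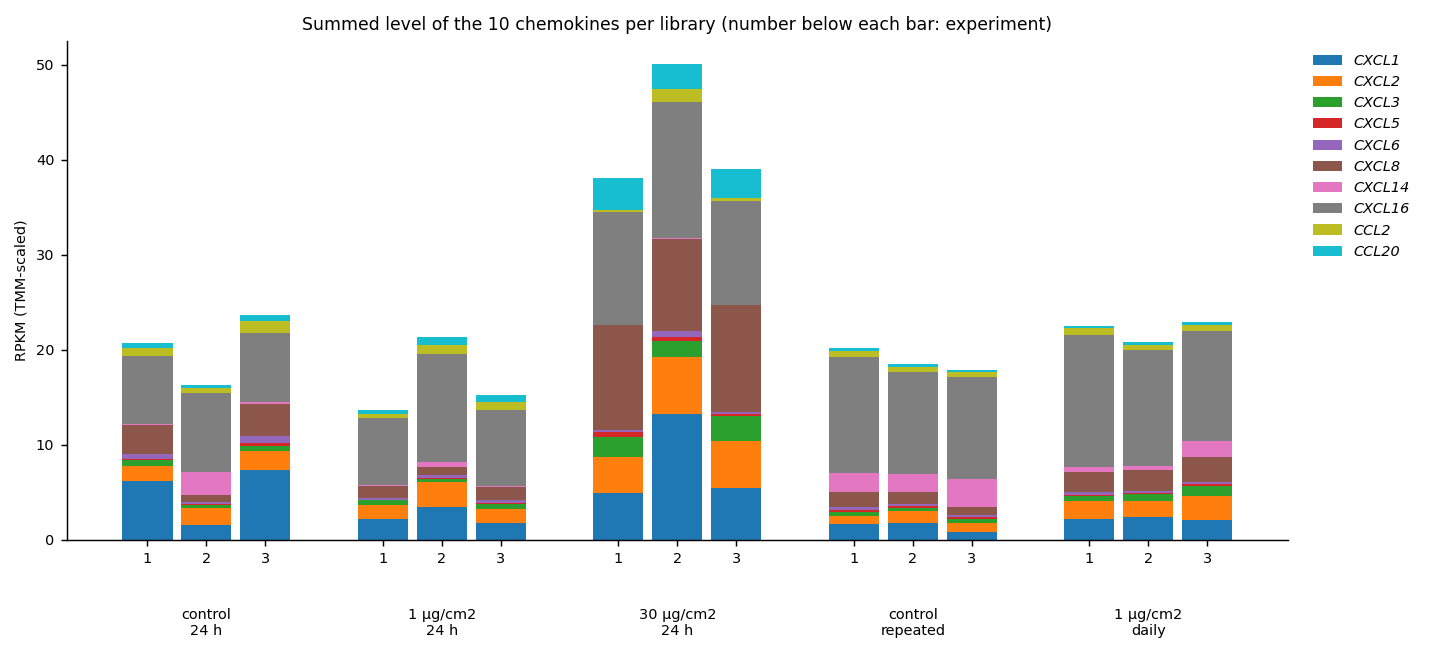
Summed level of the 10 chemokine transcripts in each library (y axis: RPKM; 1 bar per library, colored by gene, grouped by condition and numbered by experiment). The bars at 30 µg/cm2 reach 38.0 to 50.0, above all other groups, and the share of *CXCL8* in them is 19.4% to 29.0%.

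The first comparison asked how a single high exposure, 30 µg/cm2 for 24 h, changed the chemokines. *CXCL8*, *CCL20*, *CXCL3*, *CXCL2* and *CXCL16* rose, *CXCL14* fell, and *CXCL1*, *CXCL5*, *CXCL6* and *CCL2* did not pass the test. A gene passed where edgeR's quasi-likelihood test gave an adjusted p below 0.05 and the log2 fold change was at least 0.6 in size. Thus 6 of 10 chemokines passed, 5 upward, against 8.07% of all 17599 genes (1420, of which 673 were higher and 747 lower). The median log2 fold change of the 10 was 0.98, and that of all genes was 0.03. *CXCL14* was the lowest of the 10 as fitted and at the bound given below, so the bound could not change the median. With the experiment number as a block, the same count of chemokines passed and 15.2% of all genes did (2681). Without experiment 2, 7 chemokines passed, against 19.1% of all genes (3430). When only the 6 libraries compared were fitted, 3 chemokines and 2.23% of the genes tested passed (360). *CXCL14* had too few counts to be tested in that fit.

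Among the ELR ligands, *CXCL8* was at 6.86, 1.84 and 7.76 CPM in the controls of experiments 1, 2 and 3, and at 25.1, 22.0 and 25.6 CPM after 30 µg/cm2. The treated libraries were close to each other and all lay above all controls, whereas the control of experiment 2 was far below the other two. This amounted to 4.38-fold, or 2.13 ± 0.38 on the log2 scale (SE; adjusted p = 0.00298, edgeR quasi-likelihood). It was 1.86, 3.53 and 1.71 within the experiments and 1.78 without experiment 2 (adjusted p = 1.15e-06). When only the control and treated libraries of this comparison were fitted, its adjusted p was 0.0638.

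*CXCL3* was at 1.45, 0.659 and 1.35 CPM in the controls and at 4.64, 3.78 and 5.75 CPM after 30 µg/cm2. Its log2 fold change was 2.01 ± 0.32 (adjusted p = 0.00114). *CXCL2* was at 2.35, 2.68 and 3.01 CPM in the controls and at 5.69, 9.12 and 7.47 CPM after treatment, with a log2 fold change of 1.47 ± 0.27 (adjusted p = 0.00326). Both were higher in every treated library than in every control, and both rose in every experiment, by 1.63 to 2.40 for *CXCL3* and by 1.25 to 1.74 for *CXCL2* on the log2 scale. Without experiment 2 their log2 fold changes were 1.87 and 1.28, and both passed. Their reads can in part be placed on either gene, since 13.4% of the 50-base words of *CXCL2* and 6.01% of those of *CXCL3* recur in another gene.

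*CXCL1*, whose upstream sequence is close to those of *CXCL2* and *CXCL3*, did not pass the test. It was at 8.01, 2.02 and 9.42 CPM in the controls and at 6.31, 17.1 and 6.99 CPM after 30 µg/cm2, so that the groups overlapped. In experiments 1 and 3 the treated library was somewhat below its control, and in experiment 2 it was far above. The log2 ratios were -0.34 and -0.43 in experiments 1 and 3 and 3.03 in experiment 2. The fitted log2 fold change was 0.64 ± 0.49 (adjusted p = 0.485, 95% interval -0.42 to 1.69), and without experiment 2 its direction turned to -0.41 (adjusted p = 0.177). Whether *CXCL1* differed from *CXCL2* or *CXCL3* in its response was not tested.

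*CXCL6* showed the same division between experiments. It was at 1.11, 0.330 and 1.56 CPM in the controls and at 0.493, 1.46 and 0.575 CPM after 30 µg/cm2. The log2 ratios were -1.07, 1.93 and -1.34, and the fit over all 3 experiments gave -0.26 ± 0.49 (adjusted p = 0.806). Without experiment 2 it was -1.34 and passed the test (adjusted p = 0.0116). *CXCL5*, the least abundant ELR ligand with 6 to 19 counts in the controls, was at 0.271, 0.283 and 0.673 CPM there and at 1.38, 0.936 and 0.623 CPM after treatment. Only the third experiment showed no increase, and the log2 fold change of 1.26 ± 0.52 did not pass (adjusted p = 0.153), nor did the 1.13 without experiment 2 (adjusted p = 0.139).

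The other CXC ligands moved in opposite directions. *CXCL16* was at 20.1, 23.3 and 20.5 CPM in the controls and at 33.0, 40.3 and 30.5 CPM after 30 µg/cm2. The rise was even across experiments, at 0.71, 0.79 and 0.57 on the log2 scale, with a fitted log2 fold change of 0.70 ± 0.17 (adjusted p = 0.0175), and 0.63 without experiment 2 (adjusted p = 0.000323). This lies close to the limit of 0.6, and the call was lost on leaving out 1 library in 4 cases, with an adjusted p of 0.0774 without control 1, 0.0749 without control 3 and 0.0578 without treated library 1, and a log2 fold change of 0.57 without treated library 2. It was also lost when only the libraries compared were fitted (adjusted p = 0.0795). *MED11* overlaps *CXCL16* on the opposite strand, and whether the counting used strand is not given in the sources used here.

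*CXCL14* had 9, 101 and 10 counts in the controls (0.271, 4.76 and 0.354 CPM) and 3, 2 and 0 counts after 30 µg/cm2. All treated libraries were at or below the floor of 3 counts, so only a bound can be given. Against the mean floor of the treated libraries, 0.115 CPM, *CXCL14* was at least 15.5-fold lower than the control mean of 1.79 CPM, and it passed the test (adjusted p = 0.036). The size of this bound came from the control of experiment 2. Without that experiment the control mean was 0.313 CPM, *CXCL14* was at least 2.58-fold lower and the test was not passed (adjusted p = 0.135). It was also not passed without control 2 alone (adjusted p = 0.265) or without any one of the treated libraries (adjusted p = 0.112, 0.0599 and 0.129), nor in the current mode of edgeR (adjusted p = 0.0521).

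The CC ligands parted as well. *CCL20* was at 0.723, 0.471 and 0.779 CPM in the controls and at 4.50, 3.43 and 4.07 CPM after 30 µg/cm2. Every treated library exceeded every control, and the ratios within experiments were close to each other, at 2.53, 2.69 and 2.28 on the log2 scale. The fitted log2 fold change of 2.58 ± 0.30 (5.99-fold, adjusted p = 0.000151) was the largest rise among the 10, and it was 2.498 without experiment 2 (adjusted p = 8e-06). *CCL2* was at 1.54, 0.895 and 2.48 CPM in the controls and at 0.460, 2.67 and 0.575 CPM after treatment. It was lower after treatment in experiments 1 and 3, with log2 ratios of -1.60 and -1.98, and higher in experiment 2, with 1.51. The fit over all experiments gave -0.40 ± 0.54 (adjusted p = 0.725), and the fit without experiment 2 gave -1.97, which passed (adjusted p = 0.000461). It also passed without treated library 2 alone, at -1.68 (adjusted p = 0.017).

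*CXCL2*, *CXCL3* and *CCL20* passed in each of the 16 alternative fits. *CXCL1*, *CXCL6* and *CCL2* had the same sign in experiments 1 and 3 and the opposite sign in experiment 2. That the groups of a gene do not overlap was itself common. It held for 6 of the 10 chemokines and for 22.8% of all genes.

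**Figure D3:**
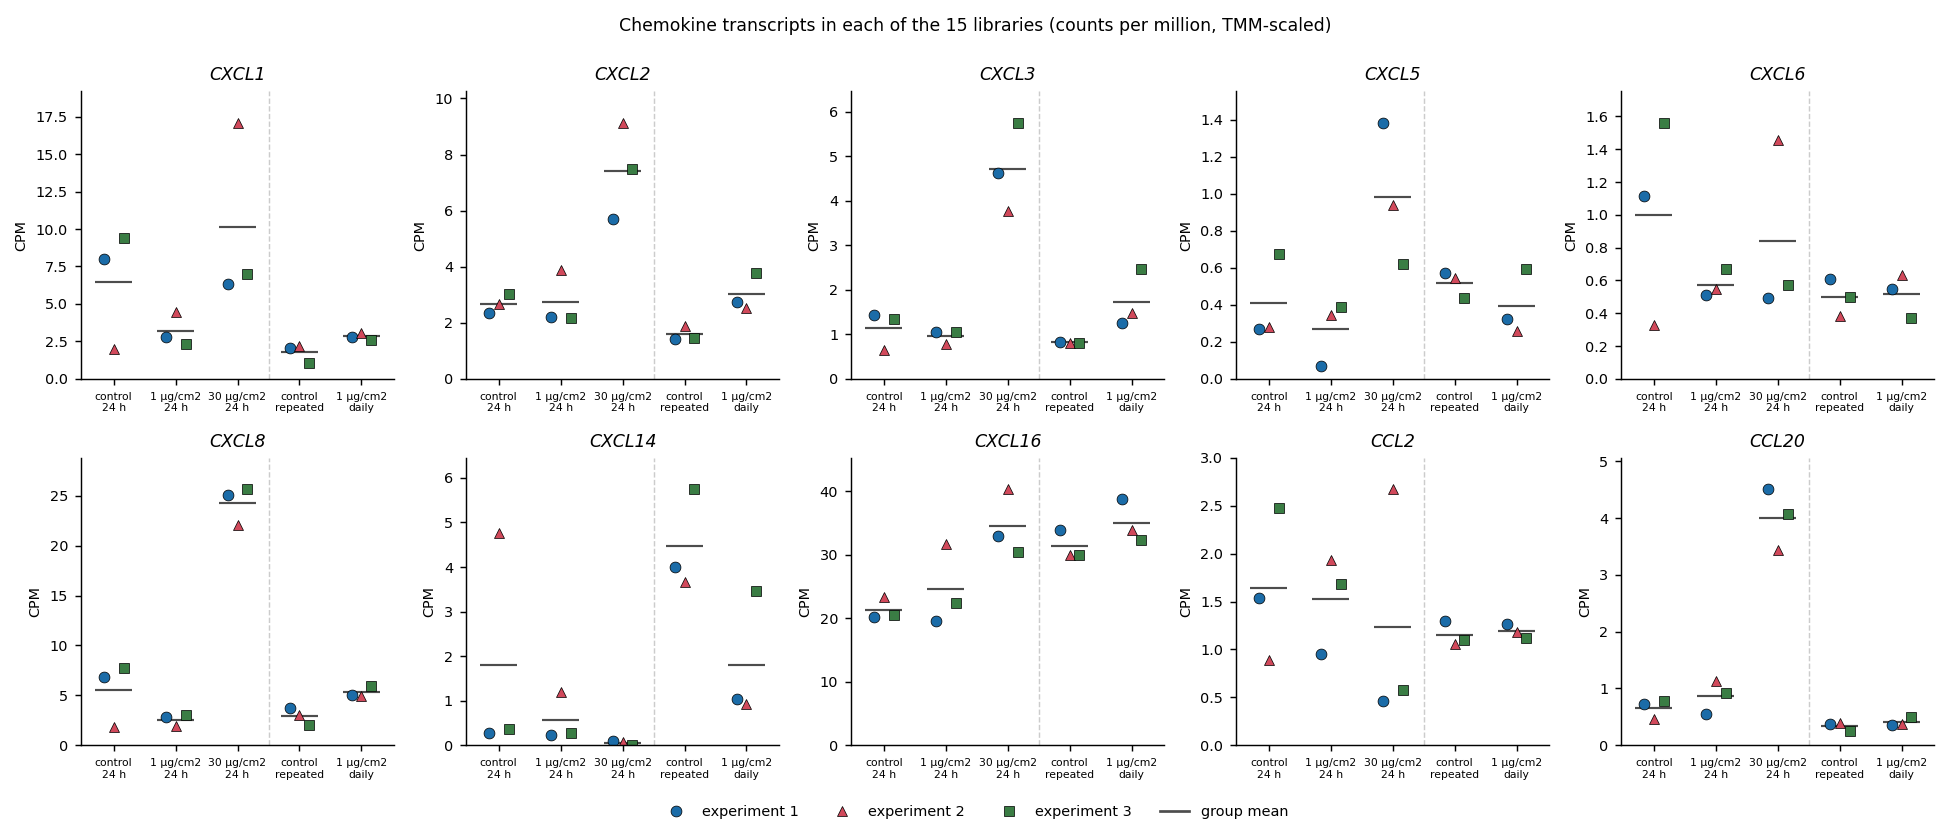
Level of each chemokine in every library (y axis: CPM, scaled by TMM, starting at 0; 1 panel per gene, points by experiment, bars at group means; the dashed line parts the single from the repeated protocol). *CXCL8* and *CCL20* at 30 µg/cm2 lie above every other library, and experiment 2 (triangles) departs from the others in the 24-h controls of *CXCL1*, *CXCL6*, *CXCL8* and *CXCL14*.

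**Figure D4:**
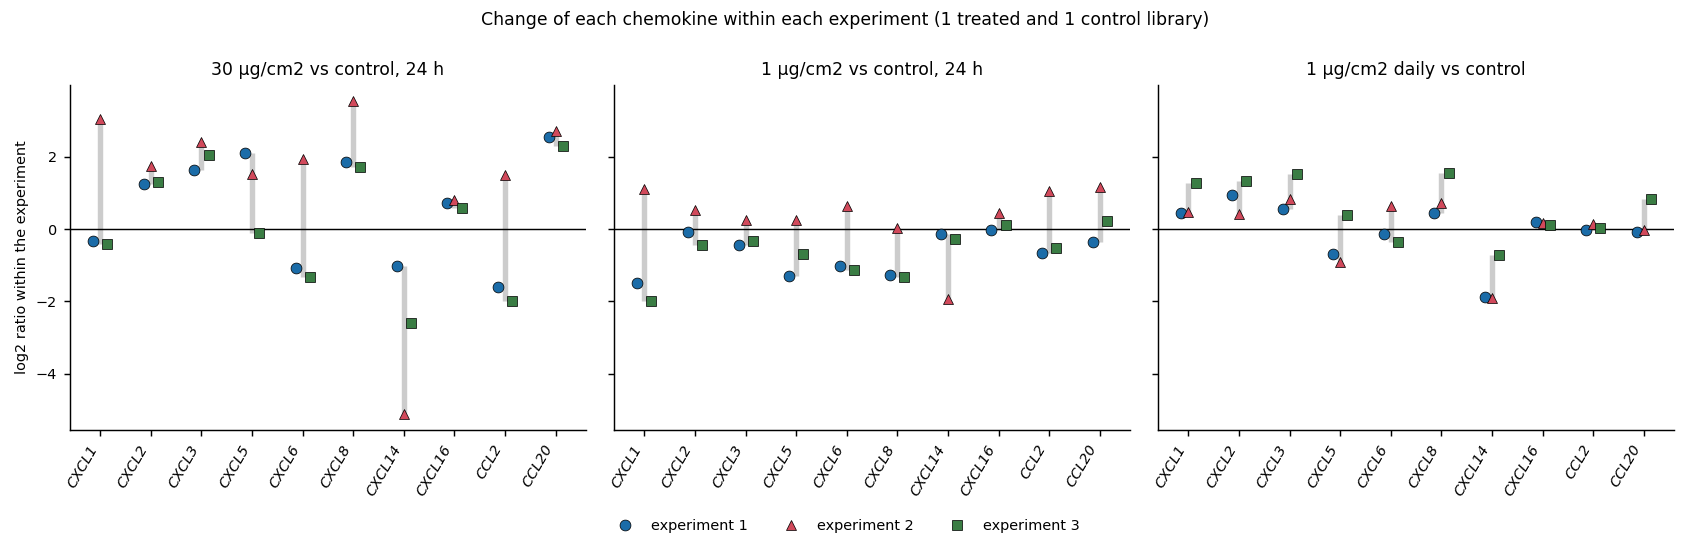
Log2 ratio of the treated to the control library within each experiment (y axis) for the 10 chemokines in 3 comparisons, with gray bars from the lowest to the highest experiment. At 30 µg/cm2 the 3 experiments nearly coincide for *CXCL16* and *CCL20* and lie on both sides of 0 for *CXCL1*, *CXCL6* and *CCL2*; the value of *CXCL14* in experiment 3 rests on a treated library with 0 counts.

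The second comparison asked whether a single low exposure, 1 µg/cm2 for 24 h, had an effect. No chemokine passed the test, and 0.0625% of all genes did (11). DESeq2, the current mode of edgeR and its likelihood ratio test also called 0 of the 10, and 1 chemokine, *CXCL8*, had an unadjusted p below 0.05. The median log2 fold change of the 10 was -0.45, against 0.01 over all genes. *CXCL8* was at 2.79, 1.88 and 3.06 CPM, which is below the controls in experiments 1 and 3 and level with the low control of experiment 2. Its log2 fold change was -1.09 ± 0.39 (adjusted p = 1, edgeR quasi-likelihood). *CXCL1* was at 2.82, 4.46 and 2.32 CPM, and its ratios to control were -1.48, 1.11 and -1.99 on the log2 scale. Its fitted value was -1.04 ± 0.51 (adjusted p = 1).

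Without experiment 2, both genes passed as lower after 1 µg/cm2, against 2.11% of all genes (378). *CXCL1* then had a log2 fold change of -1.75 (adjusted p = 0.000407) and *CXCL8* of -1.31 (adjusted p = 0.00107). *CXCL8* also passed when only control 2 was left out, at -1.48 (adjusted p = 0.0255). *CXCL6*, which had log2 ratios of -1.03, 0.62 and -1.14, did not pass without experiment 2 (-1.16, adjusted p = 0.0845). *CXCL2*, *CXCL3*, *CXCL16* and *CCL20* had log2 fold changes between -0.26 and 0.36 with intervals from -0.97 to 1.04. The groups overlapped for all 10 chemokines, while they did not for 4.44% of all genes.

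Between the doses, 5 of 10 chemokines were higher at 30 than at 1 µg/cm2, against 7.84% of all genes (1379). This comparison shares its treated libraries with both comparisons above. *CXCL8* differed most, with a log2 fold change of 3.22 ± 0.41 (9.34-fold, adjusted p = 0.000368). It was followed by *CXCL3* at 2.27 ± 0.32, *CCL20* at 2.22 ± 0.30, *CXCL5* at 1.91 ± 0.55 and *CXCL2* at 1.44 ± 0.27 (adjusted p from 0.000537 to 0.0429). *CXCL5* rested on few counts, 2 to 11 per library at the low dose, and lost its call on leaving out any library of either dose other than treated library 2 at 30 µg/cm2 (adjusted p from 0.0518 to 0.193). Within the experiments the ratio was 3.04 to 3.50 for *CXCL8*, 2.07 to 2.37 for *CXCL3*, 1.53 to 2.90 for *CCL20*, 0.60 to 3.39 for *CXCL5* and 1.22 to 1.75 for *CXCL2* on the log2 scale. *CXCL1* was higher at 30 µg/cm2 in all 3 experiments, by 1.14, 1.92 and 1.56 on the log2 scale. Its fitted log2 fold change of 1.67 ± 0.51 just missed the limit (adjusted p = 0.0533), and with the experiment as a block it passed at 1.65 ± 0.50 (adjusted p = 0.0237), as it did by DESeq2 (adjusted p = 0.0114). Without experiment 2, *CXCL1* passed at 1.34 (adjusted p = 0.000499, edgeR quasi-likelihood), and it passed in 7 of 16 alternatives. *CXCL14* was at least 4.93-fold lower at 30 than at 1 µg/cm2, and at least 2.14-fold lower without experiment 2. It did not pass in the fit reported here (adjusted p = 0.215) or without experiment 2 (adjusted p = 0.211). It passed in 4 of 15 alternatives, namely the block, no filter, DESeq2 and the likelihood ratio test (adjusted p = 0.0116, 0.0403, 0.0327 and 0.0397). *CCL2* had a log2 fold change of -0.28 ± 0.55 (adjusted p = 0.817) and ratios of -0.95, 0.45 and -1.45 within the experiments. It passed as lower at 30 µg/cm2 without experiment 2 (-1.38, adjusted p = 0.00953) and without treated library 2 at 30 µg/cm2 alone (-1.57, adjusted p = 0.0255). *CXCL16* had 0.50 ± 0.17 (adjusted p = 0.0811) and passed without library 2 at 1 µg/cm2 (0.71, adjusted p = 0.00847). With the block, 7 chemokines and 15.6% of all genes passed (2737), and without experiment 2, 7 chemokines and 17.3% of all genes did (3113). With only the libraries of both doses, 3 chemokines and 0.918% of the genes tested passed (149), and *CXCL14* was not tested. Of the 10 chemokines, 7 did not overlap between the doses, as did 21.6% of all genes.

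**Figure D5:**
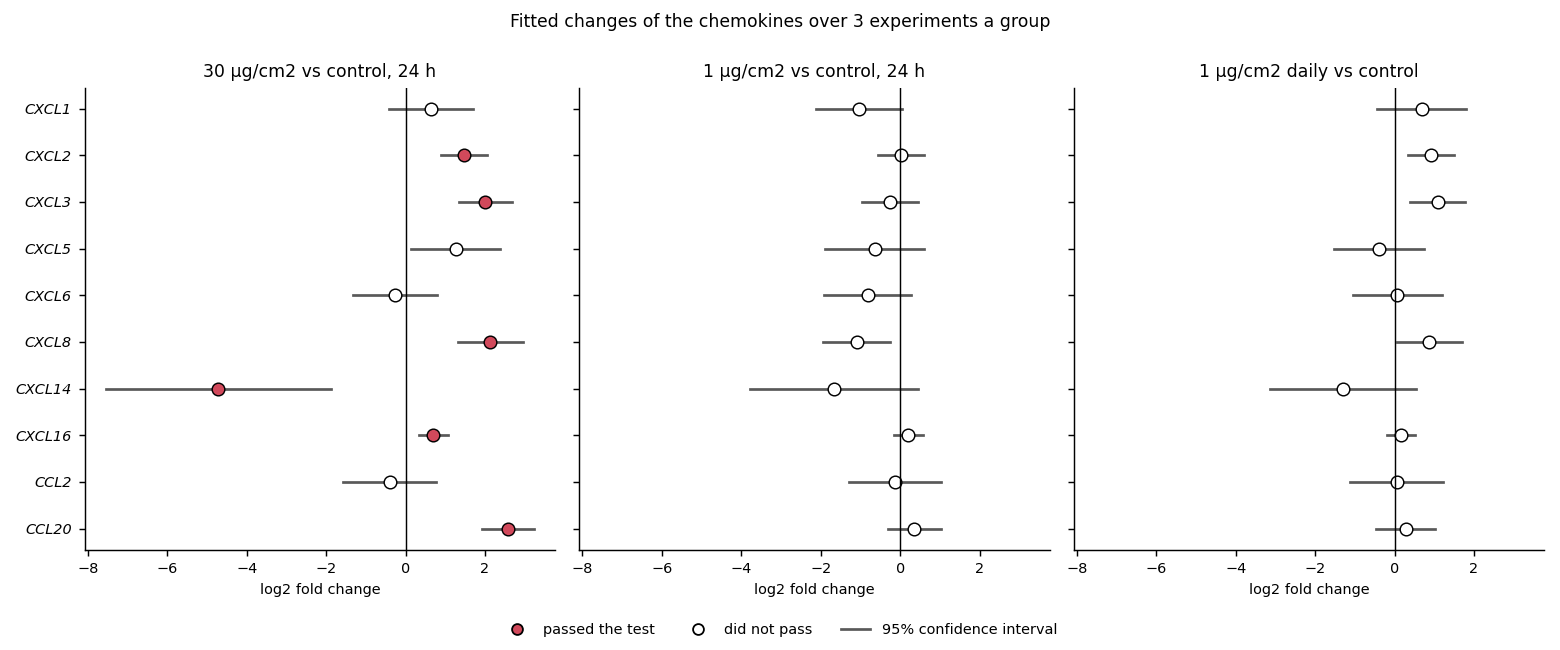
Fitted log2 fold changes (points, x axis) with 95% confidence intervals (lines) for the 10 chemokines in 3 comparisons, with filled points for those that passed the test. At 30 µg/cm2, 5 filled points lie right of 0 and that of *CXCL14* left of it, the latter from treated libraries of at most 3 counts. The unfilled points lie on both sides of 0, and no point is filled in the other panels.

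The third comparison asked whether daily exposure to the low dose had an effect that a single exposure did not. *CXCL1*, *CXCL2*, *CXCL3*, *CXCL8* and *CXCL16* were higher and *CXCL14* lower after daily exposure in each of the 3 experiments. The share of all genes with the same sign in all 3 experiments was not computed. Over all libraries no chemokine passed the test. The test called 0.227% of all genes (40). Of the 10, 3 had an unadjusted p below 0.05. DESeq2 called 1 of them (*CXCL2*), and the current mode of edgeR and the likelihood ratio test called 0. The numbers of the libraries mark experiments, and with the experiment as a block, 3 chemokines and 4.39% of all genes passed (773).

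*CXCL2* was at 1.41, 1.90 and 1.47 CPM in the controls and at 2.75, 2.54 and 3.77 CPM after daily exposure. Its log2 fold change was 0.92 ± 0.27 (adjusted p = 0.182) and, with the block, 0.91 ± 0.22 (adjusted p = 0.0218). *CXCL3* was at 0.836, 0.803 and 0.816 CPM in the controls and at 1.26, 1.47 and 2.46 CPM after exposure, with a log2 fold change of 1.08 ± 0.32 (adjusted p = 0.187; 1.05 ± 0.25 and 0.0200 with the block). In both genes the third experiment gave the highest exposed level. *CXCL8* was at 3.69, 2.99 and 2.01 CPM in the controls and at 4.99, 4.97 and 5.96 CPM after exposure. Its log2 fold change of 0.88 ± 0.39 passed neither without (adjusted p = 0.387) nor with the block (adjusted p = 0.0659).

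*CXCL14* was readily measured in this protocol, with 105, 114 and 183 counts in the controls (3.99, 3.66 and 5.74 CPM) and 32, 32 and 111 counts after daily exposure (1.04, 0.924 and 3.46 CPM). It was lower in every experiment, by -1.87, -1.91 and -0.72 on the log2 scale. The fitted value was -1.30 ± 0.86 (adjusted p = 0.592) and, with the block, -1.47 ± 0.35 (adjusted p = 0.0204). The groups did not overlap for 5 of the 10 chemokines, *CXCL1*, *CXCL2*, *CXCL3*, *CXCL8* and *CXCL14*. This is close to the share of all genes whose groups did not overlap, 42.9%. *CXCL16*, *CCL2* and *CCL20* had log2 fold changes of 0.16, 0.05 and 0.28, and *CCL2* was at 1.06 to 1.29 CPM in all 6 libraries. The spread of this test is shared with the 24-h libraries. When the libraries of 24-h experiment 2 were left out, 5 chemokines passed, *CXCL1*, *CXCL2*, *CXCL3* and *CXCL8* as higher (0.70 to 1.08) and *CXCL14* as lower (-1.31), and so did 6.03% of all genes (1083). When only the 6 libraries of this protocol were fitted, 4 passed, the same without *CXCL1*, and so did 6.23% of the genes tested (1029).

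The difference between the daily and the single response to 1 µg/cm2 was tested as an interaction. It passed for none of the 10 chemokines and for 0% of all genes, although 1245 genes had an unadjusted p below 0.05. DESeq2, the current mode and the likelihood ratio test also called 0 chemokines, and 4 had an unadjusted p below 0.05. *CXCL8* was nearest, with a difference of 1.97 ± 0.55 on the log2 scale (adjusted p = 0.423, edgeR quasi-likelihood, and adjusted p = 0.0502 with the block). *CXCL3* had a difference of 1.34 ± 0.46 (adjusted p = 0.550) and *CXCL1* of 1.72 ± 0.73 (adjusted p = 0.674). Without 24-h experiment 2, *CXCL1* (2.45), *CXCL8* (2.20), *CXCL3* (1.48) and *CXCL2* (1.19) passed (adjusted p from 0.000102 to 0.0176), against 9.84% of all genes (1766). With the block, none of the 10 and 1.03% of all genes passed (181). *CXCL8* also passed without the 24-h control of experiment 2 alone (2.36, adjusted p = 0.0129).

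Control cells of both protocols differed in culture time, in daily handling and, per the methods of the study, in plating density. These, and any difference between the experiments of each protocol, cannot be told apart. *CXCL1* was lower in controls of the repeated protocol, at 2.05, 2.22 and 1.04 CPM, with a log2 fold change of -1.88 ± 0.52 (adjusted p = 0.0155). *CCL20* was lower too, at 0.380, 0.386 and 0.251 CPM, with -0.97 ± 0.34 (adjusted p = 0.0451). Both calls, 2 of 10, stand against 21.9% of all genes (3860). *CXCL1* lost its call without 24-h control 3 (adjusted p = 0.0675) or repeated-protocol control 3 (adjusted p = 0.0725), and *CCL20* lost it on leaving out any control other than 24-h control 2 (adjusted p from 0.0789 to 0.168). For 3 of 10 chemokines, and for 52.3% of all genes, the groups did not overlap. *CXCL14* had a log2 fold change of 1.37 ± 0.87 (adjusted p = 0.261) and of 3.82 without 24-h experiment 2, where it passed (adjusted p = 2.57e-05). Its level in the 24-h control of experiment 2, 4.76 CPM, lay within the range of the repeated-protocol controls, 3.66 to 5.74 CPM. Without experiment 2, 9 of 10 chemokines passed, all but *CXCL5*, against 31.0% of all genes (5564). Calls gained as lower were *CXCL2* (-0.76, against -0.75 with experiment 2), *CXCL3* (-0.79, against -0.51) and *CXCL6* (-1.43, against -1.03). *CXCL8* (-1.36, against -0.94) and *CCL2* (-0.81, against -0.52) also passed as lower, and *CXCL16* (0.61, against 0.56) as higher. Their adjusted p ran from 9.38e-06 to 0.0315 (edgeR quasi-likelihood).

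Across the 15 libraries, *CXCL3* and *CXCL8* had the highest correlation among the 10, with a Pearson r of 0.95 between their log2 CPM and of 0.77 after group means were removed. *CXCL6* and *CCL2* had r = 0.68 and, within groups, 0.83, and *CXCL1* and *CXCL6* had 0.75 and 0.81. *CXCL8* and *CXCL14* were opposed, at -0.76 and -0.80. These values describe 15 libraries that share conditions, experiments and normalization. Outside the set, the genes most like *CXCL8* were *RXYLT1* (r = 0.96), *PLK3* (0.96) and *PTX3* (0.96). Those most like *CXCL1* were *IMP4* (0.97), *E2F4* (0.96) and *SLX9* (0.94), and those most like *CXCL14* were *NCAM2* (0.97), *PPARGC1A* (0.97) and *SLC22A3* (0.96).

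Of 34 other chemokine genes, 2 had enough counts to be tested. *CCL28*, a mucosal chemokine, fell at 30 µg/cm2 from 2.62 to 6.36 CPM in the controls to 1.68 to 2.29 CPM, by 1.12 ± 0.28 on the log2 scale (adjusted p = 0.0224). *CXCL10*, a ligand of CXCR3, had 2 to 11 counts in the controls and a log2 fold change of -1.10 ± 0.75 (adjusted p = 0.417). Of 23 chemokine receptor genes, 8 were tested, and 2 fell in this comparison, where 8.07% of all genes passed. *CXCR4*, the receptor of CXCL12, went from 2.41 to 10.9 CPM in the controls to 0.144 to 0.329 CPM, with a log2 fold change of -4.33 ± 0.66 (adjusted p = 0.000905). *ACKR1*, an atypical receptor that binds many chemokines without signaling, went from 26.1 to 54.4 CPM to 3.88 to 14.5 CPM, with -2.52 ± 0.42 (adjusted p = 0.00178). *CXCR1*, a receptor of CXCL8, had at most 1 count in a library, and *CCR6*, the receptor of CCL20, at most 2. *CXCR2*, the other receptor of the ELR ligands, had up to 13 counts in a library, and *CXCR6*, the receptor of CXCL16, up to 31. Neither of these passed at 30 µg/cm2.

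Genes that act upstream of chemokines were compared in the same way. A list of 11 cytokine genes held inducers of chemokines and *IL1RN*, which encodes the interleukin-1 receptor antagonist and opposes such induction. Of the 11, 5 were tested, and 3 rose at 30 µg/cm2, where 8.07% of all genes passed. *IL1RN*, at 0.0903 to 8.61 CPM over the 15 libraries, was not among those that passed. *IL1B* went from 0.753 to 2.05 CPM in the controls to 6.38 to 9.04 CPM, with a log2 fold change of 2.45 ± 0.36 (adjusted p = 0.000668). *IL1A* rose by 2.64 ± 0.46 (adjusted p = 0.00262) and *LIF*, a cytokine of the interleukin-6 family, by 3.35 ± 0.41 (adjusted p = 0.000201). *IL6* had a log2 fold change of 0.40 ± 0.37 (adjusted p = 0.575), and *TNF* had 0 counts in all 15 libraries. Of 11 receptors and adaptors of these signals, 2 rose, *IL1R1*, the interleukin-1 receptor, by 1.06 ± 0.25 and *TLR2*, which senses bacterial lipoproteins, by 1.52 ± 0.20.

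Of 15 genes of the NF-kB pathway, 4 rose and 0 fell at 30 µg/cm2 (median log2 fold change 0.37), where 8.07% of all genes passed. The subunits *RELB* and *NFKB2* rose by 2.03 ± 0.22 and 0.62 ± 0.14 (adjusted p = 7.4e-05 and 0.0144). The inhibitors *TNFAIP3* and *NFKBIZ*, the latter also a coactivator, rose by 1.35 ± 0.20 and 1.25 ± 0.25 (adjusted p = 0.000765 and 0.00523). *RELA* and *NFKB1* had log2 fold changes of 0.30 and 0.37 and did not pass (adjusted p = 0.089 and 0.124). Of 8 genes that control the decay of chemokine transcripts, *ZC3H12A*, an RNase, rose by 0.76 ± 0.13, and *ZFP36L2*, which binds AU-rich elements, fell by 1.26 ± 0.17. Of 6 genes that process or bind the proteins, *SDC4*, a heparan sulfate proteoglycan, rose by 1.00 ± 0.12, and the peptidase *ANPEP* fell by 1.15 ± 0.21. *ADAM10*, a protease that sheds CXCL16, had a log2 fold change of -0.53, short of the limit of 0.6 (adjusted p = 0.0454). With the experiment as a block, 6 NF-kB genes passed at 30 µg/cm2, and so did 15.2% of all genes. The block added *REL* as higher (0.69 ± 0.24) and *BIRC3* as lower (-0.61 ± 0.16), and *ZFP36L1* passed as higher (0.98 ± 0.11).

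At 1 µg/cm2 for 24 h, no gene of these lists passed. With the block, where 0.420% of all genes passed (74), *IL1B* did, at a log2 fold change of 1.27 ± 0.21 (adjusted p = 0.0184, against 0.908 without the block), and its level was 2.33 to 4.92 CPM. After daily exposure, *IL1A* was at 6.32 to 15.3 CPM, against 2.31 to 4.33 CPM in its controls, and passed with the block alone, at 1.49 ± 0.17 (adjusted p = 0.0015, against 0.182 without). In the same comparison *REL* (-1.51 ± 0.22), *ZFP36L2* (-0.63 ± 0.14) and *DPP4* (-1.25 ± 0.29), a peptidase that trims chemokines, passed as lower with the block alone. The block fit called 4.39% of all genes there.

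Airway epithelial markers fell at the high dose, at which most chemokines that passed rose and 8.07% of all genes passed. Their summed level was 1039 to 1564 CPM at 30 µg/cm2 and 2203 to 2940 CPM in the controls, and 4 of 9 (*KRT5*, *KRT8*, *KRT19* and *CDH1*) fell while 0 rose. After daily exposure the summed level was 1919 to 2089 CPM, against 2811 to 3503 CPM in its controls. *KRT5* and *TP63* fell, where 0.227% of all genes passed, joined by *KRT19* and *CDH1* with the block, where 4.39% passed. The part of these marker changes in the chemokine results was not tested. Of the leukocyte markers, 3 of 10 were tested and 0 changed with exposure, with a summed level of 12.9 to 17.6 CPM in 24-h controls and 5.95 to 19.4 CPM at 30 µg/cm2. With the block, where 15.2% of all genes passed at 30 µg/cm2, *ITGAM* passed as higher (1.10 ± 0.36) and *CSF3R* as lower (-2.73 ± 0.46).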

How the data were processed

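RNA from 15 BEAS-2B cultures was sequenced by the authors, who aligned 50-base single-end reads with STAR to GRCh38 per their methods and counted reads per gene with featureCounts; the processing notes with the labels name hg19. The coordinates in the deposited table lie within 5000 bases of GRCh38 gene starts for 97.3% of 57437 genes. The deposited values are raw counts per gene, with exon length beside them, and options for strand and shared reads are not given in the sources used here.

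From these counts, CPM and RPKM were computed with TMM scaling, and genes with low counts were removed by edgeR's filter, leaving 17599. All 15 libraries entered one quasi-likelihood fit by group (edgeR 4.0.16, R 4.3.3). Benjamini-Hochberg adjustment ran over all tested genes, and a call needed an adjusted p below 0.05 and a log2 fold change of 0.6 or more in size. SE was derived from the fold change and its F statistic. The script was tested on simulated data. Alternatives were DESeq2 1.42.0, other scalings, filters and edgeR tests, the experiment as a block, leaving out each library, and leaving out 24-h experiment 2.

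The series states that the last number of a label marks the experiment. Deviations from group means correlated at 0.201 to 0.721 between same-numbered 24-h libraries and at 0.121 to 0.181 in the repeated protocol. For differently numbered libraries the values were -0.683 to 0.453 at 24 h and -0.127 to -0.0341 in the repeated protocol. The 24-h ranges overlapped, with means of 0.529 for same-numbered and -0.231 for differently numbered libraries. The 24-h values alone therefore do not establish pairing number by number. The block was used as a paired fit by the stated numbers. With experiments as replicates, p-values rest on the spread between experiments in a single line, pooled over the 5 groups of both protocols. The fit by group leaves out the pairing by experiment, which the block fit includes. Floors cover counting error only.

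The 10 chemokines, the other gene lists and the alternatives were chosen with earlier results of these data known. All 10 are described. Of the other lists, every gene that passed could be named, and of those that did not, at most 4 per list with the highest mean level. Receptors and leukocyte markers at or near 0, *CXCR2* and *CXCR6*, and genes that passed with the block alone, were named after their values were seen. The 3 genes most like *CXCL8*, *CXCL1* and *CXCL14* had the highest Pearson r over log2 CPM (prior count 2).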

Additional observations from a re-analysis of the deposited data

How the results depend on the processing

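At 30 µg/cm2 against control, *CXCL2*, *CXCL3* and *CCL20* passed under each of the 16 alternatives. With only the libraries compared, 3 chemokines passed there and 3 between the doses, and *CXCL14* was not tested in either fit. At 1 µg/cm2 against control, the count rose to 2 without 24-h experiment 2 and was 0 to 1 on leaving out single libraries. For daily exposure, where the count was 0, it was 1 by DESeq2, 3 with the replicate block, 5 without 24-h experiment 2 and 4 with only the libraries compared. Between the controls, it was 4 by DESeq2, 1 in edgeR's current mode, 9 without 24-h experiment 2 and 0 to 6 on leaving out single libraries. For the difference between daily and single responses, it was 1 with no filter, 4 without 24-h experiment 2 and 0 to 1 on leaving out single libraries. Beyond the values given with the results, the replicate block changed no other call of a chemokine, and it could not be applied between the controls of both protocols. The cause of these changes was not tested. Fits of fewer libraries have fewer degrees of freedom, and the part of this in the changes was not tested either.

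Signs that turned belonged to chemokines that had not passed. Without 24-h experiment 2, log2 values became -0.41 for *CXCL1* at 30 µg/cm2, -0.27 for *CXCL2* and -0.034 for *CCL20* at 1 µg/cm2, -0.17 for *CXCL6* between the doses, and -1.06 for *CXCL14*, 0.11 for *CXCL16* and 0.32 for *CCL20* in the difference of responses. With the replicate block, they became -0.015 for *CXCL2* at 1 µg/cm2 and -0.19 for *CXCL14* in the difference of responses. On leaving out single libraries, log2 values at 30 µg/cm2 ran from -1.68 to 0.0067 for *CCL2* and from -0.94 to 0.17 for *CXCL6*. At 1 µg/cm2 they ran from -0.39 to 0.31 for *CCL2*, from -2.71 to 0.79 for *CXCL14*, from -0.019 to 0.36 for *CXCL16* and from -0.29 to 0.18 for *CXCL2*. Between the doses they ran from -1.57 to 0.10 for *CCL2* and from -0.13 to 0.81 for *CXCL6*, and for daily exposure from -0.0060 to 0.14 for *CCL2* and from -0.10 to 0.25 for *CXCL6*. In the difference of responses they ran from -0.25 to 0.45 for *CCL2*, from -0.35 to 0.15 for *CCL20*, from -2.10 to 1.41 for *CXCL14*, from -0.19 to 0.19 for *CXCL16* and from -0.33 to 0.68 for *CXCL5*.

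Of the counts of chemokines that passed, 81 were within 1.5 times the reported count over all alternatives, 12 were higher and 8 lower. Depth limits *CXCL5*, *CXCL6*, *CCL20* and *CXCL14* most, which had fewer than 20 counts in 13, 11, 8 and 7 of the 15 libraries, followed by *CCL2* in 3 and *CXCL3* in 2.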
